A study of Mus musculus with 6 samples.

Results

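Serpins are a superfamily of proteins that share one fold and, in most members, inhibit serine proteases. An exposed reactive centre loop is offered to the protease as bait, and its cleavage lets the hinge at the base of the loop slide into a beta sheet and trap the enzyme. Hepatocytes secrete many serpins into plasma, where they restrain clotting, fibrinolysis, complement and neutrophil proteases, and some members carry hormones or act as chaperones instead of inhibiting. In the mouse, the Serpina1 and Serpina3 genes have multiplied in a cluster on chromosome 12 into paralogs whose reactive loops differ.

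The members were all genes of the deposited table whose symbol begins with Serpin and a clade letter from a to i, pseudogenes included, which gave 48 of 24501 genes. The rule reads symbols only, but the family itself was selected on measured values of this comparison, the fold changes of Serpina3c and Serpina7 among them. The values below are therefore a description, and no p-value is given for a member. Of the 48 members, 27 were of clade A, 12 of clade B, 2 each of clades E and F, and 1 each of clades C, D, G, H and I. The clade A genes lay on chromosome 12 with the exception of Serpina7 on the X chromosome. The 26 members on chromosome 12 spanned 103614786 to 104414329 (mm10), a stretch of 800 kb.

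The libraries came from livers of 6 C57BL/6J males, all homozygous for floxed Gata4, a gene for a zinc finger transcription factor. The 3 Control mice (Gata4fl/fl; Empty AAV8) were given empty adeno-associated virus (AAV8), and the 3 mice labelled Gata4LKO (Gata4fl/fl; AAV8-Tbg-Cre) received the virus with Cre recombinase under Tbg. Tbg is the promoter of thyroxine-binding globulin, the product of Serpina7, and is used to restrict Cre to hepatocytes. Mice were injected at 8 weeks, were 11 weeks old, had eaten Western Diet (D12079B) for 3 weeks and had fasted for 6 hours, per the labels, although another label places euthanasia 7 days after injection. The groups differ in the Cre cassette as well as in the targeted gene, and these cannot be told apart.

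The 6 libraries held 33274223 to 37390345 reads in genes, and each mouse gave 1 library. Values are normalised read counts, which are reads divided by 1 factor per library. Gata4 itself had normalised counts of 704, 637 and 546 in Control and 867, 848 and 895 in the libraries labelled Gata4LKO, so its count was not lower there, and directions below rest on the labels. A count over the whole gene does not separate deleted from retained exons. Hepatocyte defining markers summed to 3630006 to 4769515 in Control and 2859983 to 3381343 in Gata4LKO, and without Alb, the most abundant, to 1516660 to 1732243 and 1441419 to 1617245, which overlap. Of these 10 markers 8 had log2 fold changes below 0 and 2 above, the median was -0.27, 0 passed with limma or edgeR, DESeq2 called 3 lower, 2 lay under an unadjusted p of 0.05, and 0 were at 0 in every library. Endothelial markers summed to 7537 to 8710 in Control and 11540 to 13925 in Gata4LKO. Of 13 tested, 5 passed the limma threshold as higher, where 1.13% of all genes tested did. Their median log2 fold change was 0.71, with 12 above 0 and 1 below. At an unadjusted p under 0.05, 12 were higher, while edgeR called 5 higher and DESeq2 called 10. In bulk tissue, fewer cells of a type and less RNA per cell cannot be told apart.

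Sequences of the Serpina3 paralogs are shown first, because they spanned log2 fold changes from -7.44 to 1.21. The 250 bases upstream of the RefSeq start (GRCm38.p6) are printed for Serpina3c and Serpina3n. Serpina3c was the member with the largest fall. Serpina3n had the promoter most alike to it among the Serpina3 members with a RefSeq start, and its count was not lower. Both read 5′ to 3′ toward the gene, Serpina3c from chr12:104153873-104154122 on the minus strand and Serpina3n from chr12:104406458-104406707 on the plus strand. Capitals mark GATA, the core letters recognised by GATA factors, searched on both strands (GATA or TATC).
Serpina3c: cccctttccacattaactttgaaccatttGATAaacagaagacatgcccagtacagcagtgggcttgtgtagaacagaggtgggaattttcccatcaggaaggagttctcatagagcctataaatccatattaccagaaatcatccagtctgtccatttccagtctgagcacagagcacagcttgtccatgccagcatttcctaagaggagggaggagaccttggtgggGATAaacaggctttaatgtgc
Serpina3n: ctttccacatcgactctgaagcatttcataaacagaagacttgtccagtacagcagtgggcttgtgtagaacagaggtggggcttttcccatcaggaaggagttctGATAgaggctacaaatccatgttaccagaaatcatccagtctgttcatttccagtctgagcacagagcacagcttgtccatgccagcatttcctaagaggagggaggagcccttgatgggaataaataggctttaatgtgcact

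The 2 windows were identical at 229 of 247 aligned bases, or 92.7%. The other 14 Serpina3 promoter pairs that aligned over at least 150 bases were 68.4% to 82.9% identical. Some Serpina3 members, Serpina3m and Serpina3k among them, had no RefSeq start, so their promoters were not compared. Serpina3c held GATA at bases 30 to 33 and 230 to 233, counted from 1 at the 5′ end of its window. Each site differed from Serpina3n by 1 base, G30C and G230A. Serpina3n held GATA at bases 107 to 110 of its own window, where Serpina3c differed by G107C. GATA occurred in 53.6% of all 32851 RefSeq windows of this length, so these letters are common. The 35 members with a RefSeq start had 41 windows, some of them 2 each, and 25 of these (61.0%), from 22 members, held GATA. The longer word AGATAA occurred in 9.99% of all windows and in 8 of the 41 windows of the family (19.5%), and in neither printed promoter. The 8 windows came from 7 members, Serpinb2, Serpinb7, Serpinb10, Serpina3i, Serpina7, Serpinf1 and Serpinf2. Of these, Serpina7 was higher in Gata4LKO, Serpinf1 and Serpinf2 were lower without passing, and the others were too low in count to be tested. A match describes letters and does not show binding.

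The paralogs also differ in the loop that meets the protease. The 75 coding bases from the hinge onward (GENCODE M21 transcripts, chromosome 12) are given for the 4 Serpina3 members with the highest Control counts, for Serpina1c and Serpina1a, which fell, and for Serpina1e, the Serpina1 gene that varied most between mice. Capitals mark the 24 bases of the hinge, located by its conserved codons, and the lower case bases run through the loop.
Serpina3c: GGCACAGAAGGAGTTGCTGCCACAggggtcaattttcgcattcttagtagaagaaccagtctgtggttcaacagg
Serpina3m: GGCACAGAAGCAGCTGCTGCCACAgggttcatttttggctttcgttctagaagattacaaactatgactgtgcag
Serpina3k: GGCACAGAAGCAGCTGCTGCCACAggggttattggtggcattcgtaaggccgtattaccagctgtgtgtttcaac
Serpina3n: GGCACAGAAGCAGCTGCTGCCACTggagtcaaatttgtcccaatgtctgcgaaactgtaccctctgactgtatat
Serpina1c: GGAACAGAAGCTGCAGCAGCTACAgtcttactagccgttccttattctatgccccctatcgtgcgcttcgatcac
Serpina1a: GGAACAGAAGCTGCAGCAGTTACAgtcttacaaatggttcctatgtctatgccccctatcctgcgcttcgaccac
Serpina1e: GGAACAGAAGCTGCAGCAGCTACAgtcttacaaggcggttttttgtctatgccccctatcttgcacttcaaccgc
Upstream of the loop, Serpina3m, Serpina3k and Serpina3n were 90.1%, 87.1% and 88.2% identical to Serpina3c. Over the lower case loop bases that aligned, the identity was 66.0%, 72.9% and 63.0%. Serpina1a and Serpina1e were 99.4% and 97.1% identical to Serpina1c upstream and 82.4% and 76.5% in the loop. The loops were thus less alike than the coding sequence before them in each of these pairs.

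Levels between members are compared as normalised count per kb of exon, because a longer transcript gives more reads. The length is that of all annotated exons merged, which can exceed that of the transcript expressed. Serpina1b and Serpina1c both have coding sequences of 1239 bases, but merged exons of 2415 and 1361 bases. The order of levels and the shares of paralogs per kb therefore depend in part on the annotation. In Control the highest level was that of Serpina3k, a mouse counterpart of the human alpha-1-antichymotrypsin gene, with 113956 ± 8322 per kb (SD, n = 3). Serpina1e followed with 79636 ± 10192 and Serpina1c with 46860 ± 2352. The Serpina1 genes are mouse counterparts of the human gene for alpha-1-antitrypsin, the main plasma inhibitor of neutrophil elastase. Their reactive loops differ, and which of these paralogs inhibit elastase cannot be read from counts. Serpina1b had 36064 ± 4560 and Serpina1d 26474 ± 2927 per kb. Serpinf1, Serpinf2 and Serpina1a lay next to each other at 10881 ± 448, 10872 ± 764 and 10850 ± 263 and did not differ beyond their SD. Serpina3m, Serpina3n, Serpind1 and Serpinc1 also lay within about an SD of their neighbours, between 7858 and 8841 per kb. In Gata4LKO the order at the top was Serpina1e, at 187941 ± 118008 per kb, and Serpina3k, at 156569 ± 24442, whose SDs overlap. Serpina3c moved from rank 16 of the 48 to rank 30, with 2363 ± 156 per kb in Control and 13.4 ± 2.81 in Gata4LKO.

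**Figure D1:**
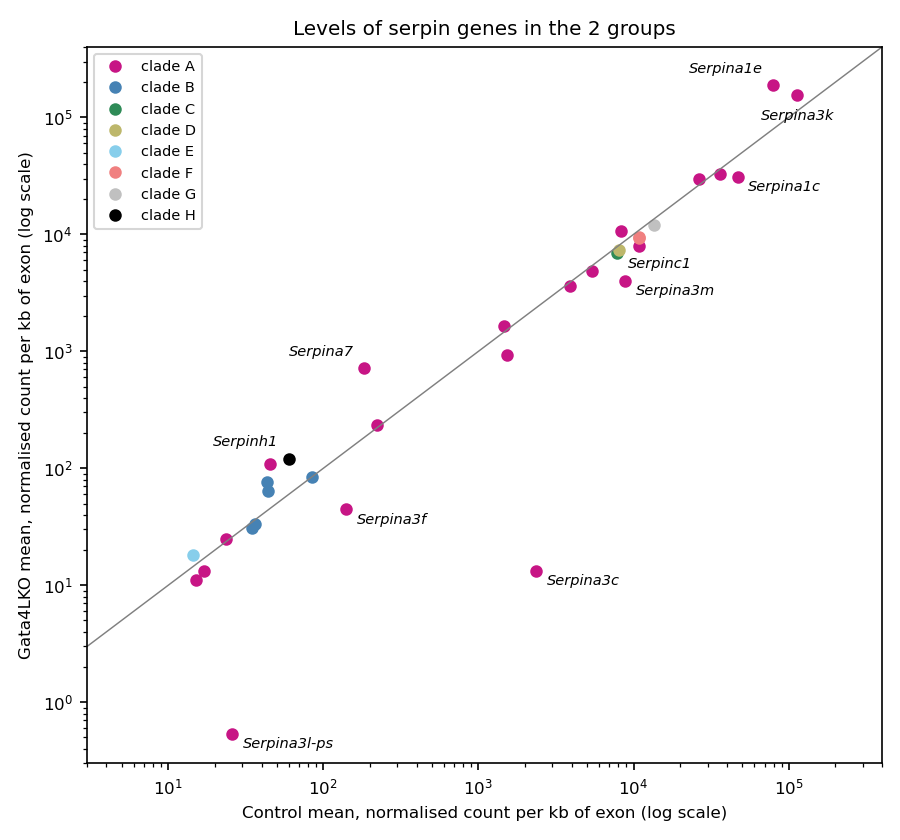
Mean normalised count per kb of exon of 33 serpin members with a mean count of at least 10, Control (x) against Gata4LKO (y), both on log scales, coloured by clade. The line marks equal levels. Serpina3c (2363 against 13.4 per kb) lies farthest below it among members above 100 per kb in Control.

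Of the 48 members, 34 had a mean normalised count of at least 10 over the 6 libraries and entered the fit across all genes. The 14 others reached means of at most 7.21, led by Serpina3i, and the lowest mean among those that entered was that of Serpina3l-ps, at 16.7. The fit was limma on log2(count + 1) over 14385 genes with Benjamini-Hochberg adjustment at 0.05, and all log2 fold changes are Gata4LKO minus Control on that scale. A member is said to pass where it does so in this fit. Of the 34, 7 passed, 1 higher and 6 lower, where 2.06% of all genes tested passed (1.13% higher and 0.932% lower). Because the family was proposed from this comparison, nothing is read from that difference. The median log2 fold change of the 34 was -0.07, with 17 above 0 and 17 below. Over all genes tested the median was -0.01, and 51.5% of them lay below 0. The groups did not overlap for 19 of the 34, 7 higher and 12 lower, against 28.3% of all genes tested (15.0% higher and 13.4% lower).

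The calls depended on single libraries. Serpina3c passed in every fit, but its fold change was among the values that selected the family, so this is no support. Without Control replicate 3, and without Gata4LKO replicate 3, Serpina3c was the only member that passed, while 0.389% and 0.188% of all genes did. Without Control replicate 1, Serpina3c, Serpina3l-ps and Serpina7 passed. Without Gata4LKO replicate 2, Serpina3m passed beside these, and without Gata4LKO replicate 1 the calls of Serpina1a and Serpina1c were lost and Serpina11 and Serpina1e passed. Without Control replicate 2, 10 members passed, 3 higher and 7 lower. DESeq2 on the recovered reads called 5 members higher and 8 lower, adding Serpina3g, Serpina3k, Serpina3n, Serpinh1, Serpina11 and Serpinf1 to the 7, while it called 9.52% of all genes. edgeR on these reads called the same 7 members and 1.97% of all genes. No share of all genes under an unadjusted p of 0.05 is given, so counts at that cutoff have no background to be read against. In the authors' deposited table, 11 of the 34 had an adjusted p under 0.05, 4 higher and 7 lower, and these included the 7.

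**Figure D2:**
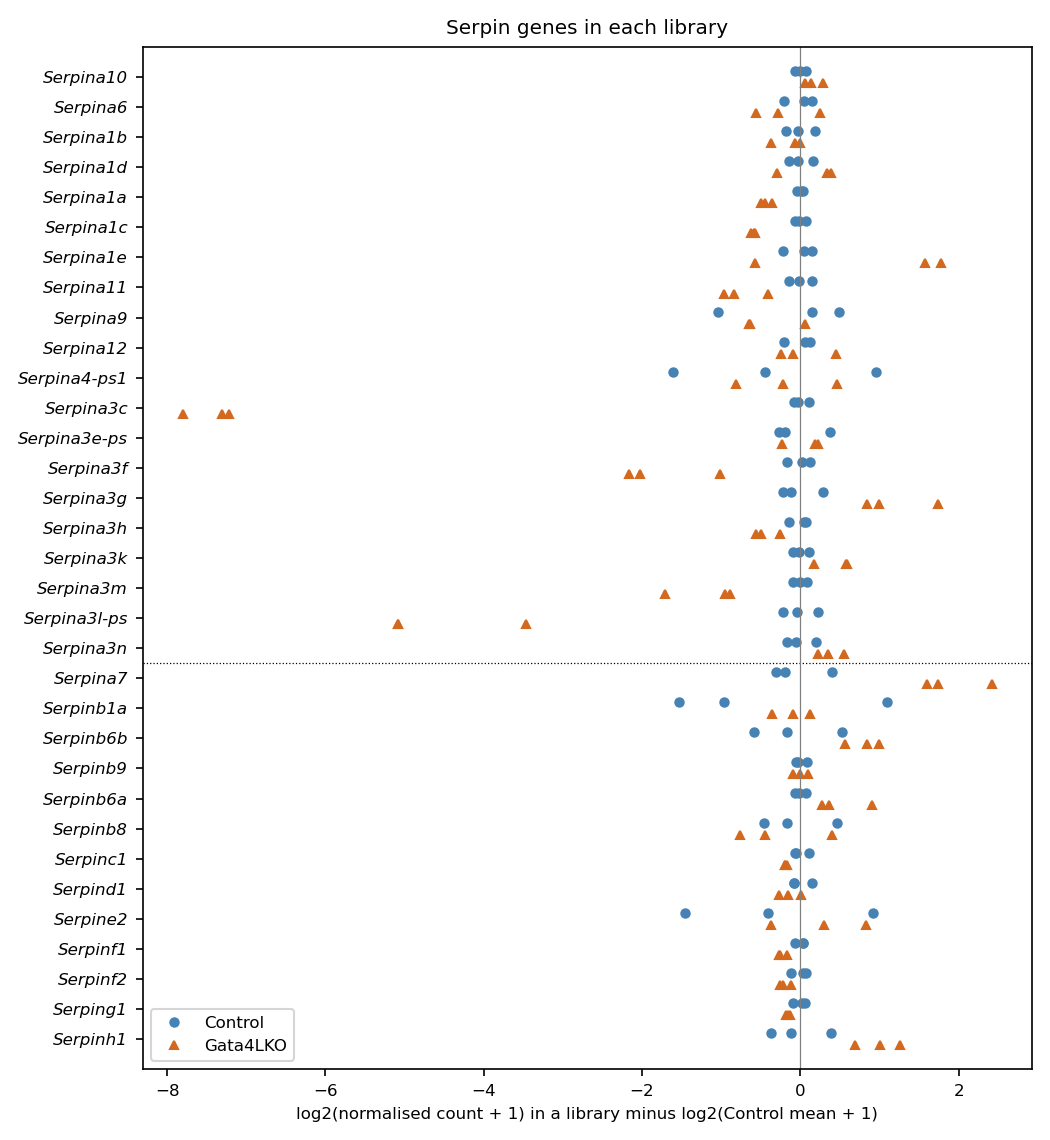
Log2(normalised count + 1) of each library minus log2(Control mean + 1) for 33 members with a mean count of at least 10, with circles for Control and triangles for Gata4LKO. Members above the dotted line are on chromosome 12 in genome order. Serpina3c and Serpina3l-ps stand far to the left, and the Serpina1e triangles fall on both sides of 0.

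The Serpina3 genes held the largest changes. Serpina3c (ENSMUSG00000066361, chromosome 12, 104146382 to 104153870, minus strand) is 1 of several mouse counterparts of human SERPINA3. It had normalised counts of 5621, 4965 and 5101 in Control and 22.5, 34.1 and 32.1 in Gata4LKO. The groups lay far apart and each was tight. The means were 5229 ± 346 and 29.6 ± 6.21 (SD, n = 3), the log2 fold change was -7.44 (SE 0.16), and the Gata4LKO mean was 0.00566 times that of Control. Of the 50-base words in its transcripts, 4.25% also occurred in other genes, and 0% of its 100-base words did. How far such shared words feed the remaining counts was not tested.

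Serpina3m, whose coding sequence was 89.8% identical to that of Serpina3c, had 15166, 16132 and 14292 in Control and 8201, 4652 and 7830 in Gata4LKO. All 3 Gata4LKO values lay well below the Control values. Its log2 fold change was -1.18, and the SE was 0.20. Serpina3f had 327, 351 and 287 in Control and 159, 78.3 and 70.8 in Gata4LKO. Here too the groups did not overlap, and Gata4LKO replicate 1 was the nearest to Control. The log2 fold change was -1.73 (SE 0.29). The pseudogene Serpina3l-ps, which lies between Serpina3k and the end of Serpina3m, had 31, 37 and 30 reads in Control and 2, 0 and 0 in Gata4LKO. It met the filter through its Control counts alone, so its call is not independent of the filter, and with a mean of 50 as the filter it was not tested. The ratio of summed reads, corrected for library size, was 0.0209 with an exact 95% interval of 0.00249 to 0.0775, which covers counting error only.

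The other 5 tested Serpina3 genes did not pass. Serpina3k, which gives most of the reads of the Serpina3 genes, had 252931, 219169 and 231121 in Control and 264100, 348198 and 353887 in Gata4LKO. The lowest Gata4LKO value was just above the highest Control value. Its log2 fold change of 0.45 (SE 0.19) did not pass. Serpina3n, an acute phase serpin secreted by hepatocytes and astrocytes, had 15154, 19473 and 16460 against 21742, 19842 and 24871, with a log2 fold change of 0.38 (SE 0.12) that did not pass. The nearest values of the groups, 19473 and 19842, almost touched. Serpina3g, an intracellular paralog known as Spi2A that inhibits cysteine cathepsins, had 117, 82.1 and 87.8 against 322, 173 and 192. All Gata4LKO values were higher, and the log2 fold change of 1.21 (SE 0.26) did not pass in the main fit. Serpina3h had 15.8 ± 1.92 in Gata4LKO against 21.6 ± 1.80, and Serpina3e-ps had 30.6 ± 5.22 against 29.1 ± 7.83, both without passing. The remaining Serpina3 rows, Serpina3a, Serpina3b, Serpina3d-ps, Serpina3i and Serpina3j, had no value above 10.4.

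Together, of the 14 Serpina3 rows 9 were tested, and 4 passed as lower and 0 as higher with limma. In the same direction, 2 were higher at an unadjusted p under 0.05, edgeR called 0 higher and DESeq2 called 3. The 4 that passed include Serpina3c, whose fold change helped select the family, and Serpina3l-ps, which met the filter through Control alone. The summed count of the 14 rows was 289425, 260270 and 267447 in Control and 294607, 373040 and 386953 in Gata4LKO. The sum was higher in Gata4LKO without overlap, and Serpina3k made up most of it. Without Serpina3k, the sum was lower in Gata4LKO, 29472 ± 4209 against 37973 ± 2710, again without overlap. Per kb of exon, Serpina3k took 83.3% to 86.6% of the Serpina3 total in Control and 89.2% to 93.1% in Gata4LKO. Serpina3c took 1.77% in Control and 0.00774% in Gata4LKO on average. Serpina3m took 6.63% and 2.41%.

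Some reads can be shared between these paralogs. Serpina3k and Serpina3m are annotated with the same first base and share 60 exon bases, and their coding sequences are 92.0% identical. Of the 50-base words of Serpina3m, 19.1% occurred in other genes, mostly in Serpina3k, and 6.09% of its 100-base words did. Serpina3k values were 10 or more times those of Serpina3m, so the split of reads between them is uncertain, and its part in the fold change was not tested.

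The alpha-1-antitrypsin genes showed a different picture, with 2 members lower and 1 split within its group. Serpina1c had 67259, 63107 and 60963 in Control and 41552, 42488 and 42730 in Gata4LKO. The Gata4LKO values were close together and all below Control. Its log2 fold change was -0.59, and the SE was 0.09. Serpina1a had 19341, 20274 and 20019 against 14626, 15469 and 14028, again with no overlap and with a log2 fold change of -0.44, SE 0.07. Serpina1b (87095 ± 11012 against 78924 ± 10405) and Serpina1d (36905 ± 4080 against 41668 ± 9952) overlapped between groups.

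Serpina1e had 133162, 110539 and 142612 in Control and 86237, 442377 and 383087 in Gata4LKO. Gata4LKO replicate 1 lay below every Control library and the other Gata4LKO libraries far above. The log2 fold change of 0.93 (SE 0.57) did not pass, and it was 1.68 without Gata4LKO replicate 1. Per kb, Serpina1e took 41.6%, 34.8% and 43.0% of the Serpina1 total in Control and 37.7%, 71.3% and 68.9% in Gata4LKO. The Serpina1 sum overlapped between groups for this reason, at 330131 to 345015 in Control and 239755 to 635268 in Gata4LKO. Without Serpina1e it did not overlap, at 207654 ± 14066 in Control and 177556 ± 21080 in Gata4LKO.

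Counts of single Serpina1 genes are uncertain, because their coding sequences were 96.3% to 98.5% identical. Of the 50-base words of Serpina1c, 79.3% occurred in other genes, chiefly in Serpina1a, and 69.3% of its 100-base words did. The shares at 50 bases were 57.6% for Serpina1a, 50.9% for Serpina1d, 34.6% for Serpina1e and 29.5% for Serpina1b. The unprocessed pseudogene Gm8893, which lies among these genes and shares 31.1% of the 50-base words of Serpina1a, had 1308, 1662 and 1518 in Control and 1144, 416 and 360 in Gata4LKO. Its Gata4LKO libraries split as those of Serpina1e did, in the opposite direction, and its log2 fold change was -1.42 (limma adjusted p = 0.0964). Serpina1c also shares 429 exon bases with B430119L08Rik on the opposite strand, and the strand setting of the counting is not given in the sources used here.

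**Figure D3:**
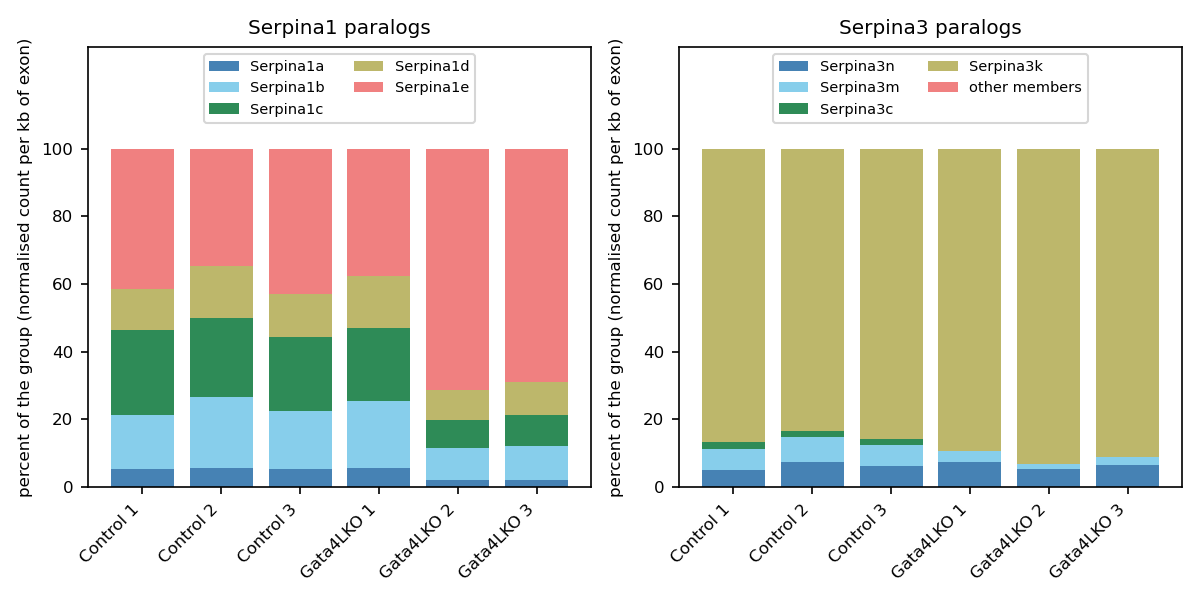
Percent of the summed normalised count per kb of exon that each paralog took within the Serpina1 genes (left) and the Serpina3 genes (right), 1 bar per library. Serpina1e takes 71.3% and 68.9% in Gata4LKO replicates 2 and 3 and 34.8% to 43.0% in the other libraries, and Serpina3k takes 83.3% or more everywhere.

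Among the hormone carriers, Serpina7 rose and Serpina6 did not pass. Serpina7, thyroxine-binding globulin, had 590, 392 and 361 in Control and 2392, 1492 and 1358 in Gata4LKO. Every Gata4LKO value was more than 2 times the highest Control value. The log2 fold change was 1.95 (SE 0.25), and 0% of its 50-base words occurred in other genes. Serpina6, corticosteroid-binding globulin, had 9823, 10515 and 8269 against 11312, 7847 and 6451 and overlapped. Serpina10, which inhibits factor Xa with protein Z, had 5094 ± 235 against 5718 ± 468, and its groups also overlapped. Serpina12, or vaspin, an adipokine in mice and humans, had 823 ± 97.6 against 862 ± 229.

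Serpina11 had 2774, 2279 and 2482 in Control and 1886, 1409 and 1287 in Gata4LKO. Its groups did not overlap, the log2 fold change was -0.73 (SE 0.15), and it did not pass here although the authors' deposited table has it under 0.05. It shares 669 exon bases, 40.8% of its exons, with Gm28577 on the same strand. Serpina4-ps1 ranged from 1650 to 9750 within Control, a 5.91-fold spread, and Serpina9 from 29.9 to 88.5.

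The members outside chromosome 12 numbered 22, of which 14 were tested and 1, Serpina7, passed with limma, while DESeq2 also called Serpinh1 and Serpinf1. Among the plasma inhibitors of clotting and complement, Serpinc1, Serping1 and Serpind1 had means slightly below Control without passing. Serpina10, on chromosome 12, went the other way, at a log2 fold change of 0.16 (SE 0.08) that did not pass. Serpinc1, antithrombin, had 64226, 64899 and 72325 against 58886, 58830 and 59723. All Gata4LKO values were lower, at a log2 fold change of -0.18, SE 0.10, and 33.6% of its 50-base words also occurred in other genes, chiefly Zbtb37, which overlaps it on the opposite strand. Serping1, the C1 inhibitor that restrains complement and kallikrein, had 31871, 32600 and 29489 against 28220, 28614 and 27736, and log2 -0.15 (SE 0.08). These groups did not overlap either. Serpind1, heparin cofactor II, had 17618 ± 1666 against 16029 ± 1541 and overlapped.

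Serpinf1, which encodes pigment epithelium-derived factor, a member that does not inhibit proteases, had 24450, 26245 and 26310 against 22884, 21241 and 21423. Serpinf2, alpha-2-antiplasmin, the main inhibitor of plasmin, had 23252, 26601 and 25949 against 21075, 23237 and 21743. Both genes were lower in every Gata4LKO library, at log2 fold changes of -0.23, SE 0.08, and -0.20, SE 0.09. Neither passed with limma, and DESeq2 called Serpinf1. Both lie within 30 kb on chromosome 11. The sums of clades C, F and G were each lower in Gata4LKO without overlap. The hepatocyte markers had a median log2 fold change of -0.27, with a sum that overlapped between groups once Alb was left out, and their part in these small differences was not tested.

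Members known chiefly from cells other than hepatocytes did not pass in the limma fit. Serpinh1, the collagen chaperone HSP47 of matrix-producing cells, had 113, 191 and 135 in Control and 236, 352 and 295 in Gata4LKO. The groups did not overlap, and the log2 fold change was 1.02 (SE 0.23). DESeq2 and the authors' deposited table had it under 0.05, as did limma with equal library sums and without Control replicate 2, the fit in which Serpinb6b passed as well. Serpinb6a, an intracellular inhibitor, had 228, 251 and 235 against 446, 288 and 307, and Serpinb6b had 98.4 ± 39.6 against 173 ± 25.6. Both were higher in every Gata4LKO library, with log2 0.51 (SE 0.17) and 0.87 (SE 0.28). Serpinb6a shares 762 exon bases, 14.1% of its exons, with Nqo2 on the opposite strand, and 25.1% of its 50-base words occurred in other genes. Serpine2 ranged 5.24-fold within Control, and Serpinb1a, an inhibitor of neutrophil proteases, 6.38-fold. Serpinb9, the inhibitor of granzyme B, had 296 ± 15.4 in Control and 297 ± 19.6 in Gata4LKO. Serpinb8 had 167 ± 57.5 and 147 ± 64.9.

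Markers of other cell types are given beside these values. Stellate cell and fibroblast markers summed to 5622 to 13861 in Control and 15835 to 18564 in Gata4LKO, with 13 of 14 log2 fold changes above 0 and a median of 0.94. Macrophage and Kupffer cell markers summed to 5619 to 11252 and 13451 to 25636, with 16 of 17 above 0 and a median of 1.23. Lymphocyte markers summed to 182 to 602 and 591 to 795. In these 3 lists limma called 0 genes and 0 were at 0 in every library. At an unadjusted p under 0.05 they held 12, 14 and 4 genes, all higher, and edgeR called 0 in each, while DESeq2 called 4, 11 and 1. Over all genes edgeR called 1.97% and DESeq2 9.52%, and the share at the unadjusted cutoff is not given. Neutrophil and cholangiocyte markers, with 2 and 8 genes tested, had median log2 fold changes of 0.69 and -0.49 and 0 limma calls, where 1 and 2 genes lay under an unadjusted p of 0.05, edgeR called 0 in each and DESeq2 called 1 in each. Their part in the values of Serpinh1 and the Serpinb genes was not tested.

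The chromosome 12 cluster was also compared with the genes around it. Of its 26 members 20 were tested, with log2 fold changes from -7.44 to 1.21, and 6 passed as lower and 0 as higher. edgeR called 6 lower and 0 higher, DESeq2 7 lower and 3 higher, and 2 were higher at an unadjusted p under 0.05. The 6 that passed include Serpina3c, whose fold change helped select the family. They also include Serpina3l-ps, which met the filter through its Control counts alone. Members of opposite sign lay side by side, as Serpina3f and Serpina3g or Serpina3k and Serpina3l-ps do. Of the 13 other tested genes inside the cluster or within 500 kb of it, 1 passed. That gene, Ifi27l2b, of the interferon alpha-inducible 27 family, had 82.3, 98.7 and 89.7 in Control and 5.11, 5.02 and 8.50 in Gata4LKO, which is a difference of -3.69 on the log2 scale (limma adjusted p = 0.00357). On the rest of chromosome 12, 9 of 495 tested genes passed, or 1.82%. The family was proposed from this comparison and Ifi27l2b was named after its values were seen, so nothing is read from these counts. The Serpinb cluster on chromosome 13 had 8 members, of which 4 were tested and limma, edgeR and DESeq2 called 0, with 2 at an unadjusted p under 0.05. Of its 8 tested neighbours limma and edgeR called 0 and DESeq2 called 1, and 2 lay under an unadjusted p of 0.05.

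**Figure D4:**
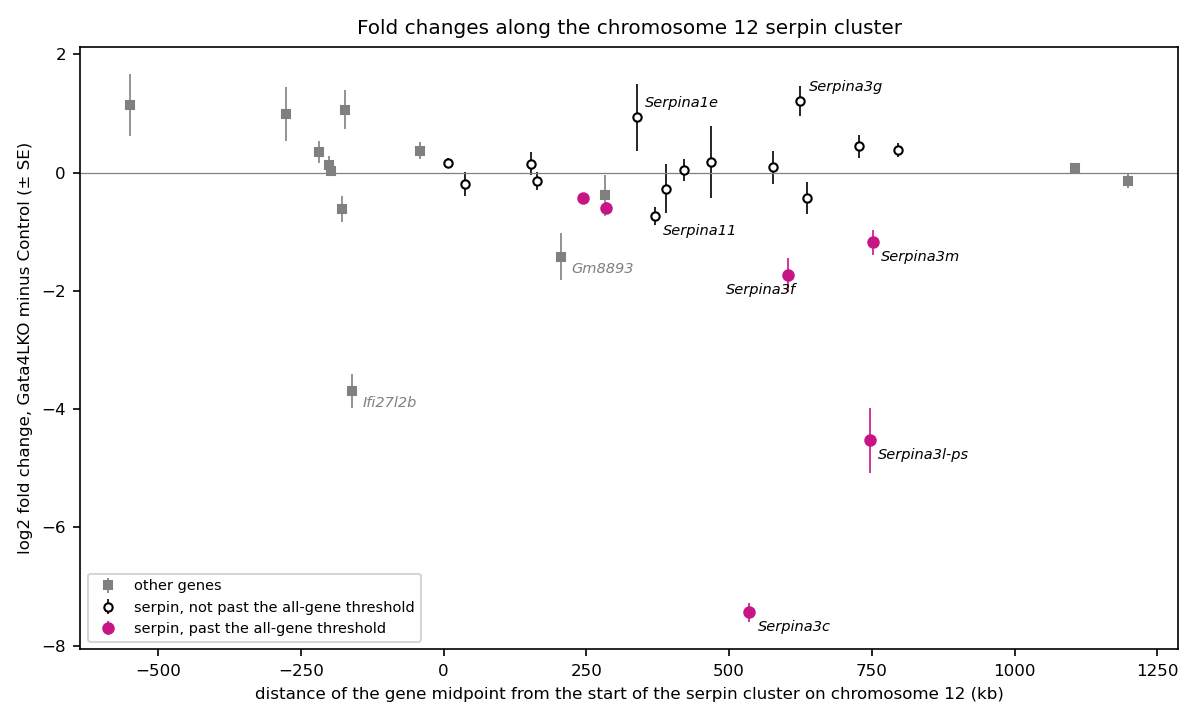
Log2 fold change (Gata4LKO minus Control, bars ± SE) of tested genes by the distance of their midpoint from the start of the chromosome 12 serpin cluster in kb, with serpins as circles and other genes as grey squares. Filled circles passed the threshold over all genes, and they stand between members that did not.

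The proteins that serpins act on or compete with were read from lists. Of 25 tested inhibitors of other families, limma and edgeR called 1, DESeq2 called 2 higher and 6 lower, and 9 lay under an unadjusted p of 0.05. The limma call was Wfdc21, with 7122, 7582 and 7520 in Control and 5293, 5027 and 5093 in Gata4LKO (log2 -0.53, limma adjusted p = 0.0146). The median of that list was -0.09. Of 23 proteases and plasma proteins that serpins are known to act on, limma and edgeR called 0, DESeq2 called 1 higher and 4 lower, and 7 lay under an unadjusted p of 0.05, with a median log2 fold change of -0.14 and 17 below 0. Among them Prtn3, neutrophil proteinase 3, had 6.17, 13.5 and 1.87 against 54.2, 55.2 and 30.2, which did not pass (limma adjusted p = 0.0604). F10 and Proc, the genes of coagulation factor X and protein C, had log2 fold changes of -0.34 and -0.24, and Masp1 had -0.35.

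Of 14 binding partners and receptors of serpins, limma and edgeR called 0, DESeq2 called 1 higher and 1 lower, 5 lay under an unadjusted p of 0.05, and the median was 0.21. Hspg2, the heparan sulfate proteoglycan perlecan, had the smallest p, with 666, 722 and 671 in Control and 904, 831 and 1045 in Gata4LKO (limma adjusted p = 0.0719). Ttr, the thyroid hormone carrier transthyretin, had 206758, 201810 and 188860 in Control and 135266, 140337 and 148382 in Gata4LKO, lower in every library while Serpina7 was higher, without passing (limma adjusted p = 0.0996). Of 25 acute phase genes outside the serpins limma and edgeR called 0, DESeq2 called 1 higher and 5 lower, and 8 lay under an unadjusted p of 0.05. The median of that list was -0.02, beside Serpina3n at 0.38. Hamp, hepcidin, had the smallest p among them, at -0.94 on the log2 scale (limma adjusted p = 0.0595). Of 23 hepatocyte transcription factors limma and edgeR called 1, DESeq2 called 2 higher and 3 lower, and 8 lay under an unadjusted p of 0.05. The limma call was Zfpm1, the GATA cofactor FOG1, at -0.84 (adjusted p = 0.0285).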

How the data were processed

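Extraction used TRIzol and RNeasy columns, and a stranded kit with mRNA capture made the libraries, per the labels' protocols. FastQC, STAR 2.6.0c, DESeq2 and the build mm10 are named by the submitters' processing notes. Which program counted reads, with which strand setting and annotation, is not given in the sources used here. The authors deposited, for each gene, a signal that is a normalised count. Values were whole multiples of 1 step per library, within 0.1 for 100% of values, so whole reads were recovered. The authors' deposited log2 fold changes and adjusted p-values were used only where named.

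limma 3.58.1 (R 4.3.3) was fitted to log2(value + 1) with an intensity trend over genes with a mean of at least 10. edgeR 4.0.16 and DESeq2 1.42.0 on recovered reads were alternatives, with pseudocounts of 0.5 and 5, filters of none and 50, other scalings, variance models and each library left out. Members and lists were chosen with earlier results of these data known. Per-library values were given for Serpina3c, members that passed, Serpina3 genes and a fixed set of liver serpins, some by mean and SD. From lists, genes of smallest p were named, up to 4 per list. Serpina11, Serpinb6b, Serpina4-ps1, Serpina9, Serpina12, Serpine2, Serpinb8, Gm8893 and Ifi27l2b were named after their values were seen. The method was tested on simulated data. Counts over the family cover all members, and the values of 1 member are not reported here. Coordinates are from GENCODE M21, and 35 members had a RefSeq promoter. Mice are the replicates, numbered in accession order.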

Additional observations from a re-analysis of the deposited data

How the results depend on the processing

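Of the members tested, 1 was called higher in the main analysis, 3 with equal library sums, 0 without the intensity trend, 5 with DESeq2, and 0 to 3 with a library left out. Members called lower numbered 6, 8 with DESeq2, 2 without the trend, and 1 to 7 with a library left out. DESeq2 called 9.52% of all genes and limma without the trend 0.174%. Signs turned only for 7 members that no setting called. Over the libraries left out, their log2 fold changes ran from -0.16 to 0.18 for Serpina12, from -0.034 to 0.29 for Serpina3e-ps, from -0.44 to 0.84 for Serpina4-ps1, from -0.73 to 0.038 for Serpina9, from -0.18 to 1.13 for Serpinb1a, from -0.55 to 0.048 for Serpinb8 and from -0.048 to 0.046 for Serpinb9. With edgeR and DESeq2, Serpina4-ps1 was at -0.087 and -0.094 and Serpinb1a at -0.092 and -0.10, and with quantile normalisation Serpina3e-ps was at -0.089 and Serpinb9 at -0.029. The cause was not tested. The log2 fold change of Serpina3c ranged from -7.55 to -7.26. With 3 mice a group the precision is limited, and members under a mean of 10 were not tested. No paired analysis was possible because the replicate numbers only follow accession order.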
